A study of Mus musculus with 20 samples.

Results

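The livers of mice that carried 1 inactivated copy of Adck2 were compared with the livers of wild-type mice on 10 of the 20 bead arrays of the series, the other 10 being of skeletal muscle. The members were all arrays whose label names liver, 5 of WT mice and 5 of Adck2+/- mice, and no measured value entered this choice. Both genotypes were B6N mice with no further treatment, all male per the methods, and the Adck2+/- mice carried the deletion in every tissue from the germline, not in the liver alone. The line was raised from embryonic stem cell clones of a public knockout collection, and which clone these mice descend from is not given in the sources used here. The labels give an age of 3 years for every mouse and the methods an age of 6 months, and this was not settled here. Neither source gives the feeding state or the hour at which the livers were taken. Each array was treated as 1 mouse, and p-values measure only the spread between these samples. Values are normalized signals on the log2 scale, and a difference is Adck2+/- minus WT with the standard error (SE) from limma, a linear model fitted across all genes with 5 mice per genotype.

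ADCK2 belongs to the ADCK family of atypical kinases of mitochondria, which has been tied to coenzyme Q, the lipid that carries electrons from the dehydrogenases, fatty acid oxidation included, to complex III. The liver takes up fatty acids and either burns them, exports them or makes them anew, and transcription factors set the balance. PPAR-alpha turns on genes of fatty acid use, SREBP proteins turn on genes of sterol and fatty acid synthesis, and fasting hormones turn on gluconeogenesis. Mouse liver also differs widely between the sexes, since the pulsed release of growth hormone in males keeps a male pattern of cytochrome P450 and other genes.

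Between 11749 and 12493 of 25697 probes were detected on each liver array at a detection p under 0.05, and the median signal ran from 125.8 to 219. After the filter on dim probes, 8484 of the 16593 genes named on the array were tested. The single probe of Adck2 was detected on none of the WT arrays and on 3 of the Adck2+/- arrays, with raw signals between 118.5 and 199 in WT and between 148.3 and 235 in Adck2+/- mice. It did not pass the filter, so the genotype could not be checked on the transcript with these arrays. By quantitative PCR, the study reported Adck2 mRNA as significantly lower in Adck2+/- liver, and it reported the protein as decreased there. Eif2s3y, Kdm5d and Uty, which lie on the Y chromosome, were detected on all 10 arrays, and Xist, which female cells make from the inactive X, on 1. Of 8 hepatocyte markers on the array, 6 passed the filter, Ttr and Apoa1 being detected on every array, whereas the probe of Fgb was detected on none.

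A pair of arrays in each genotype were much alike. Over 10113 probes detected on all 10 arrays, the SD of the log2 difference was 0.207 between Adck2+/- 1 and Adck2+/- 4 and 0.246 between WT 1 and WT 2, against 0.284 to 0.732 in the other 43 pairs of liver arrays and at least 0.300 in the 45 pairs of muscle arrays. Over the brightest 1 in 4 of these probes it was 0.104 and 0.110, against at least 0.182 in the other liver pairs. Only 15 probes differed by more than 2-fold between Adck2+/- 1 and Adck2+/- 4 and 32 between WT 1 and WT 2, against 39 to 1482 in the other pairs. The signals were not copies, since no pair of liver arrays shared the same signal at more than 78 probes. Whether such a pair came from 1 mouse was not tested, and values with each pair averaged to 1 sample, 4 against 4, an alternative added once the data were known, are given where they bear on a result. If the arrays of a pair share a mouse, p-values from 5 against 5 are too small. WT 3, Adck2+/- 1 and Adck2+/- 4 also stood apart from the other 7 arrays on the first principal component, and values without these 3 arrays are given beside many of the results below.

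**Figure D1:**
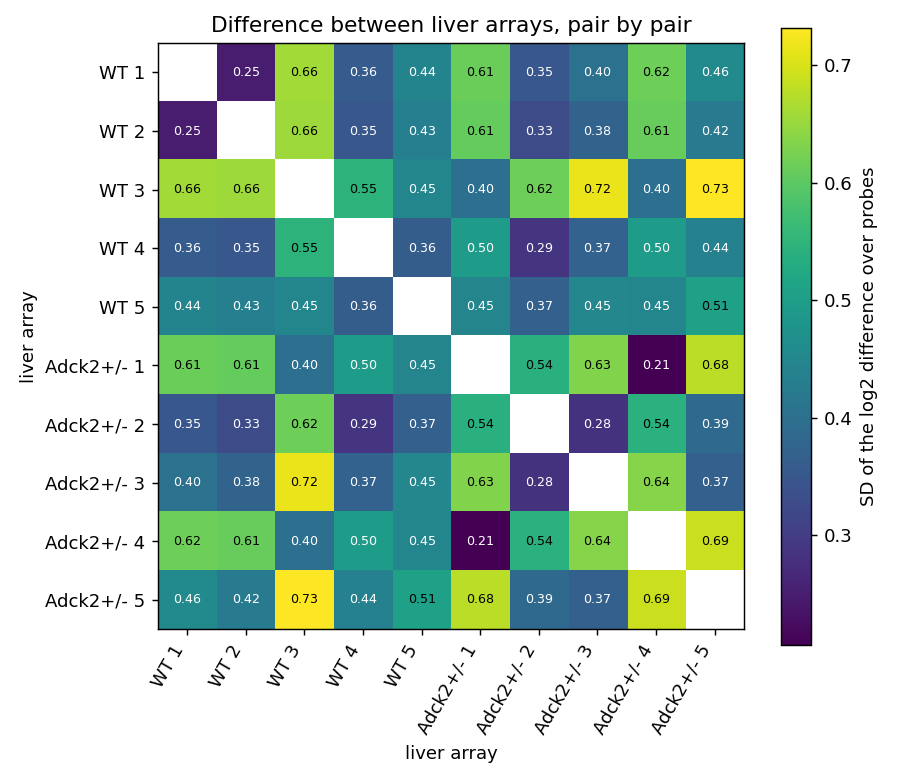
Difference between each pair of the 10 liver arrays, as the SD of the log2 difference over 10113 probes (colour and printed value). The darkest cells are Adck2+/- 1 with Adck2+/- 4 (0.207) and WT 1 with WT 2 (0.246), and WT 3, Adck2+/- 1 and Adck2+/- 4 are far from most other arrays.

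In liver, Acot3, an acyl-CoA thioesterase of peroxisomes that splits long-chain acyl-CoA into free fatty acid and coenzyme A, was 3.37-fold higher in Adck2+/- mice. It was the only gene of 8484 past an adjusted p under 0.05 (0.0118% of genes, higher; none lower). Its log2 signal was 7.08, 6.72, 7.33, 7.37 and 6.66 in WT 1 to 5 and 8.78, 8.63, 9.36, 8.89 and 8.26 in Adck2+/- 1 to 5. Every Adck2+/- array lay above every WT array. The log2 fold change was 1.75 (SE 0.21, adjusted p = 0.0296 from limma). With the like pairs averaged it was 1.71 (adjusted p = 0.402), and without the 3 arrays that stood apart 1.79 (adjusted p = 0.264), so the size held and the call did not. Leaving out 1 array at a time gave 1.61 to 1.88, and the call held only without Adck2+/- 3 or Adck2+/- 5.

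Over all genes, Adck2+/- mice had 286 (3.37%) at a higher and 311 (3.67%) at a lower level at an unadjusted p under 0.05, while 59 (0.695%) lay wholly above and 94 (1.11%) wholly below the WT values. The counts of list members below are to be read against these shares. With median scaling in place of quantile normalization, the median of all genes moved from 0.01 to 0.16, and 429 of 480 genes at an unadjusted p under 0.05 were higher, against 286 of 597. Directions below are those under quantile normalization, and lists whose median turned its sign under another scaling are named.

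**Figure D2:**
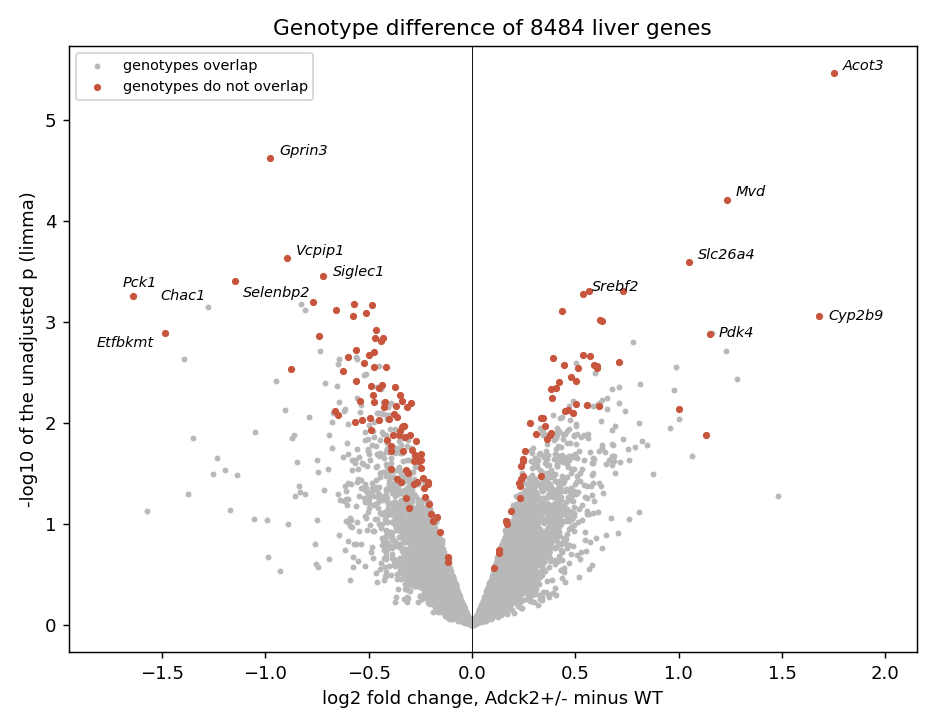
Log2 fold change (Adck2+/- minus WT, horizontal) against -log10 of the unadjusted p from limma (vertical) for the 8484 liver genes tested. Genes whose genotypes do not overlap are coloured (59 higher, 94 lower), and Acot3 stands highest and farthest to the right at 1.75.

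Acot3 lies in a row of thioesterase genes on chromosome 12, between Acot4 and Acot5. The 150 bases before the transcription start of Acot3 and of its measured neighbours Acot1 and Acot4 are shown because these genes were all higher in Adck2+/- liver, and those of Mvd, Srebf2 and Fasn because these lead the sterol and fatty acid genes below. The sequences are those of RefSeq (GRCm38.p6), 5' to 3' on the strand of the gene, at chr12:84009352-84009501 (Acot1, plus strand), chr12:84038229-84038378 (Acot4, plus, before the start given in the promoter table, which lies inside the gene, annotated from 84037254 on), chr12:84051994-84052143 (Acot3, plus, the first of its 2 starts), chr8:122443423-122443572 (Mvd, minus), chr15:82147119-82147268 (Srebf2, plus) and chr11:120824548-120824697 (Fasn, minus). Capitals mark CCAAT boxes (CCAAT, or ATTGG where the box is on the other strand) and the E-box CACGTG.
Acot1: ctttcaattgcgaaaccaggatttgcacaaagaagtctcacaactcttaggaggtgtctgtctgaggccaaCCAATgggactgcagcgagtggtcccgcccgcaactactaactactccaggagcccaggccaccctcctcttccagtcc
Acot4: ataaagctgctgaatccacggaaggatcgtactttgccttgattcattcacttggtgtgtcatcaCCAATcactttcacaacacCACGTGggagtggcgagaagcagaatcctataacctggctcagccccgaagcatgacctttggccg
Acot3: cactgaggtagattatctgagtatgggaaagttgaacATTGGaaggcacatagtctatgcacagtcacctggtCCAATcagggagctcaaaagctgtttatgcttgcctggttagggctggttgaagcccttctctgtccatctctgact
Mvd: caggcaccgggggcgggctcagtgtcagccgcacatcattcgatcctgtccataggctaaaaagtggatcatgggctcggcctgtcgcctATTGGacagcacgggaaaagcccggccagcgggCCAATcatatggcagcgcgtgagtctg
Srebf2: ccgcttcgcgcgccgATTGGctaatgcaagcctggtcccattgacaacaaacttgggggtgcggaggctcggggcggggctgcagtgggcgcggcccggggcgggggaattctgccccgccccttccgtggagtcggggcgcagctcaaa
Fasn: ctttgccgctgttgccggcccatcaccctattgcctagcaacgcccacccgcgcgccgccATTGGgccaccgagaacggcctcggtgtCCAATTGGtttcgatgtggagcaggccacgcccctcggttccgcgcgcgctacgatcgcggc
Each of the 6 windows held at least 1 CCAAT box on either strand, as did 24.5% of 32851 windows of this length before the starts of all genes. Fasn held 3 of them, of which 2 overlap, and Mvd and Acot3 held 2 each. Acot4 alone held an E-box, found in 4.3% of windows, and alone held a single AGGTCA, the unit of the repeat that many nuclear receptors bind, on the other strand at -13 and not in capitals, found in 8.58% of windows. Neither the direct repeat of AGGTCA with any single base between, which PPAR receptors bind (0.0304% of windows), nor the sterol element TCACNCCAC (0.639%) was found in any of the 6, and these letters were searched in these windows only. Without gaps, the window of Acot3 was alike at 36.0% of bases to that of Acot4 and at 32.4% to that of Acot1.

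Of 11 thioesterase genes tested, 8 were above 0, with a median log2 fold change of 0.25, where 52.8% of all genes were above 0 with a median of 0.01. Besides Acot3, 4 had an unadjusted p under 0.05 and were higher, and 3 of the 11 did not overlap between genotypes. Over all genes, 3.37% were higher at this p and 0.695% lay wholly above the WT values. Acot9, one of those 4, and Acot2 were each detected on only 2 WT arrays and passed the filter through the Adck2+/- arrays, so these counts are a description only. Acot1, the cytosolic enzyme, had log2 signals of 12.08, 12.14, 12.46, 12.46 and 11.99 in WT and 13.10, 12.69, 12.96, 12.96 and 12.57 in Adck2+/- mice. The groups did not overlap, at 0.63 (SE 0.14, adjusted p = 0.352), and the dimmer probe of Acot1 gave 0.40. Acot4, a peroxisomal enzyme for shorter dicarboxylic chains, was at 0.61 (SE 0.18) and its groups overlapped by 1 array, Adck2+/- 5. Acot11 was at 0.54 with no overlap, and Acot9 at 0.46. Acot7, the thioesterase best known from brain, was at 0.11. Acot3, Acot1, Acot4 and Acot2 are close copies of each other, and how far their probes tell them apart was not tested. The study's liver list, drawn from these samples and so no independent evidence, accounts for 4 of the 11, and the other 7 had a median of 0.01. One entry of that list carries the name Acot2 beside the older symbol Pte2a, which RefSeq gives to Acot3, and both genes are counted as listed here and below. Without the 3 arrays that stood apart the median of the list was 0.09, over 9 genes.

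**Figure D3:**
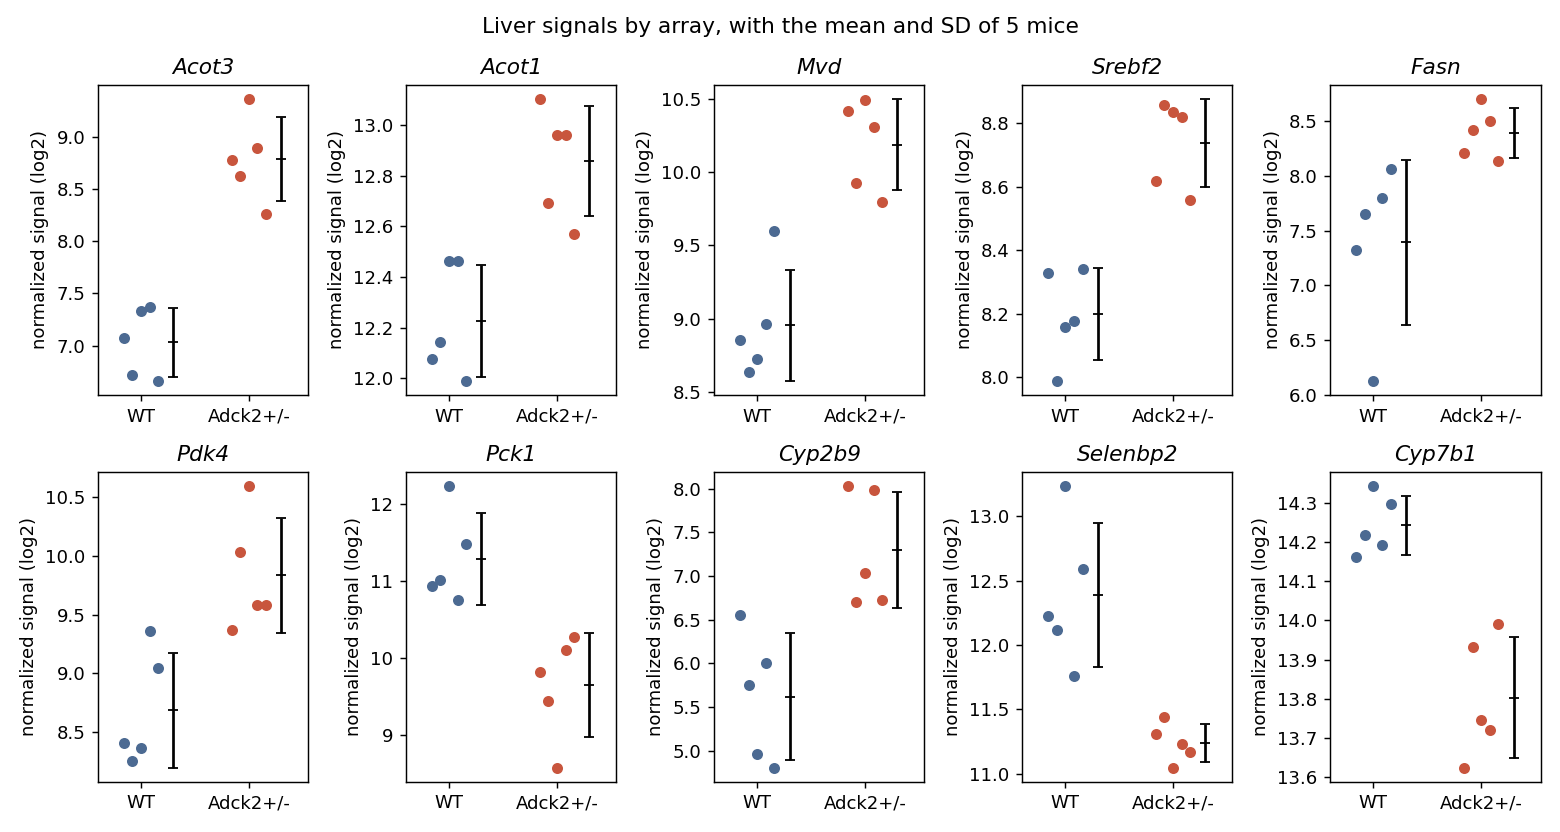
Normalized log2 signal of 10 genes on each liver array (points, arrays 1 to 5 from left to right within a genotype), with the mean and SD of 5 mice beside them; each axis has its own range. The 10 genes were picked with their values known, and all have groups that do not overlap, as do 153 of all 8484 genes. Acot3 lies between 6.66 and 7.37 in WT and between 8.26 and 9.36 in Adck2+/- mice.

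The tested targets of PPAR-alpha did not move as 1 group. Cpt1a, Fabp1, Cd36, Vnn1 and Fabp4, also targets, were detected on no liver array and were not tested. Of 32 tested, 23 were above 0 (median 0.07), but 15 of 32 with z-scores of log10 signals (median -0.005), and 8 were higher and 3 lower at an unadjusted p under 0.05. Acot3, Acot1 and Acot4, already counted among the thioesterases, are among the 8, and Acot2 is on both lists too. Some of the other lists also share members, so the counts of lists are not separate observations. Pdk4, the kinase that shuts off pyruvate dehydrogenase, had signals of 8.40, 8.25, 8.36, 9.36 and 9.05 in WT and 9.37, 10.04, 10.60, 9.59 and 9.58 in Adck2+/- mice. The highest WT value and the lowest Adck2+/- value nearly touched, and the difference was 1.15 (SE 0.27, adjusted p = 0.399 from limma). The fatty acid hydroxylase genes Cyp4a14 and Cyp4a31 were at 1.13 (SE 0.39) and 0.98 (SE 0.28), and Cyp4a14 was at 0.71 without WT 5, whose value of 11.25 lay far under the 13.34 to 13.44 of the other WT arrays. Crat, the carnitine acetyltransferase, was at 0.47. Lower in Adck2+/- mice were Eci2, an enoyl-CoA isomerase (-0.44), Creb3l3, a liver transcription factor of lipid metabolism (-0.32, no overlap), and Angptl4, a secreted inhibitor of lipoprotein lipase (-0.85, SE 0.33). Angptl4 was at 13.39 on WT 3 and 12.65 on Adck2+/- 5, each far above the rest of its group, and without the 3 arrays that stood apart it was at -0.45. The study had listed 7 of the 32, and the other 25 had a median of 0.03.

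Genes of cholesterol synthesis were higher in Adck2+/- liver by count. Of 21 tested genes of this pathway and of SREBP2, the transcription factor that turns it on, 18 were above 0 (median 0.20), 5 were higher and 1 lower at an unadjusted p under 0.05, and none was called. Mvd, mevalonate diphosphate decarboxylase, had signals of 8.85, 8.64, 8.73, 8.96 and 9.59 in WT and 10.42, 9.93, 10.49, 10.31 and 9.79 in Adck2+/- mice. WT 5 came close to the lowest Adck2+/- array, and the difference was 1.23 (SE 0.20, adjusted p = 0.176 from limma; adjusted p = 0.0292 with median scaling). Srebf2, which encodes SREBP2, was 8.33, 7.99, 8.16, 8.18 and 8.34 in WT and 8.62, 8.86, 8.83, 8.82 and 8.56 in Adck2+/- mice, a narrow spread with no overlap and a difference of 0.54 (SE 0.11). Sc5d, a late desaturase of the pathway, was at 0.68 (SE 0.24, and 0.44 without WT 3), and Nsdhl at 0.28. Aacs, which feeds ketone bodies into lipid synthesis, was at 0.62. Insig1, which holds SREBP proteins back in the endoplasmic reticulum, was at -0.61 on its brightest probe (-0.40 without Adck2+/- 5), where the others gave 0.29 and 0.30. The count above 0 was 18 of 21 without the 3 arrays that stood apart (median 0.37), 17 with the like pairs averaged (median 0.28) and 20 with median scaling, under which 6677 of all 8484 genes were above 0. The mean of the list by array overlapped between genotypes, WT 5 being at 0.0377 and Adck2+/- 1 and 4 at -0.0764 and -0.0640. The study had listed 3 of these genes, and 15 of the other 18 were above 0 (median 0.19).

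Of 27 genes of fatty acid and triglyceride synthesis, 20 were above 0 (median 0.11), 4 being higher and 1 lower at an unadjusted p under 0.05. Fasn, the fatty acid synthase, was at 7.32, 7.65, 6.13, 7.80 and 8.06 in WT and 8.21, 8.42, 8.70, 8.51 and 8.13 in Adck2+/- mice. WT 3 was the lowest array by more than 1 log2 unit, and the difference was 1.00 (SE 0.31, adjusted p = 0.526 from limma) and 0.68 without WT 3. Elovl1, an elongase of very long chains, was at 0.50 with no overlap by its brightest probe and at 0.12 to 0.22 by the other 3. Elovl6, which elongates the products of Fasn, was at 0.63, and Gpam, the first acyltransferase of triglyceride synthesis, at 0.85. Both were higher without the 3 arrays that stood apart, at 0.84 and 1.17. Srebf1, which turns on this pathway, was at 0.56 and at 0.30 without WT 3, on which it was 8.35 against 9.26 to 9.83 in the other WT mice. Lpin2, a phosphatidic acid phosphatase, was at -0.60 (-0.37 without WT 3). Without the 3 arrays 16 of 27 were above 0 (median 0.14). Angptl8, a liver hormone that feeding and insulin turn on, was at 1.07 (SE 0.40), and at 0.33 without the 3 arrays.

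Pck1, the cytosolic enzyme that commits the liver to gluconeogenesis, was lower in Adck2+/- liver. Its signal was 10.93, 11.02, 12.24, 10.75 and 11.49 in WT and 9.82, 9.44, 8.57, 10.11 and 10.28 in Adck2+/- mice, with no overlap. The difference was -1.64 (SE 0.35, adjusted p = 0.341 from limma), the largest below 0 among all genes tested, and stayed between -1.80 and -1.38 with any 1 array left out. Cebpb, a transcription factor of hepatocytes that acts on Pck1, was at -0.48 with no overlap, and Crtc2, a coactivator that glucagon switches on, at -0.52. Igfbp1, which insulin represses, was at -1.05 (SE 0.57) and G6pc, the enzyme of the last step of glucose release, at -0.34 (SE 0.30), but these were 0.14 and 0.24 without the 3 arrays that stood apart. Single arrays moved them as well, Igfbp1 to -0.70 without WT 3, and G6pc to -0.22 without WT 3, -0.14 without Adck2+/- 1, -0.19 without Adck2+/- 4 and -0.53 without Adck2+/- 5. Igfbp1 was 5.44 and 5.29 on Adck2+/- 1 and 4 against 6.87 to 7.85 on the other Adck2+/- arrays. Of 15 genes tested, 12 were below 0 (median -0.08) under quantile normalization and 6 under median scaling (median 0.07). The count below 0 was 8 without the 3 arrays that stood apart (median -0.06) and 9 with the like pairs averaged (median -0.03). In all, 3 had an unadjusted p under 0.05, all lower.

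**Figure D4:**
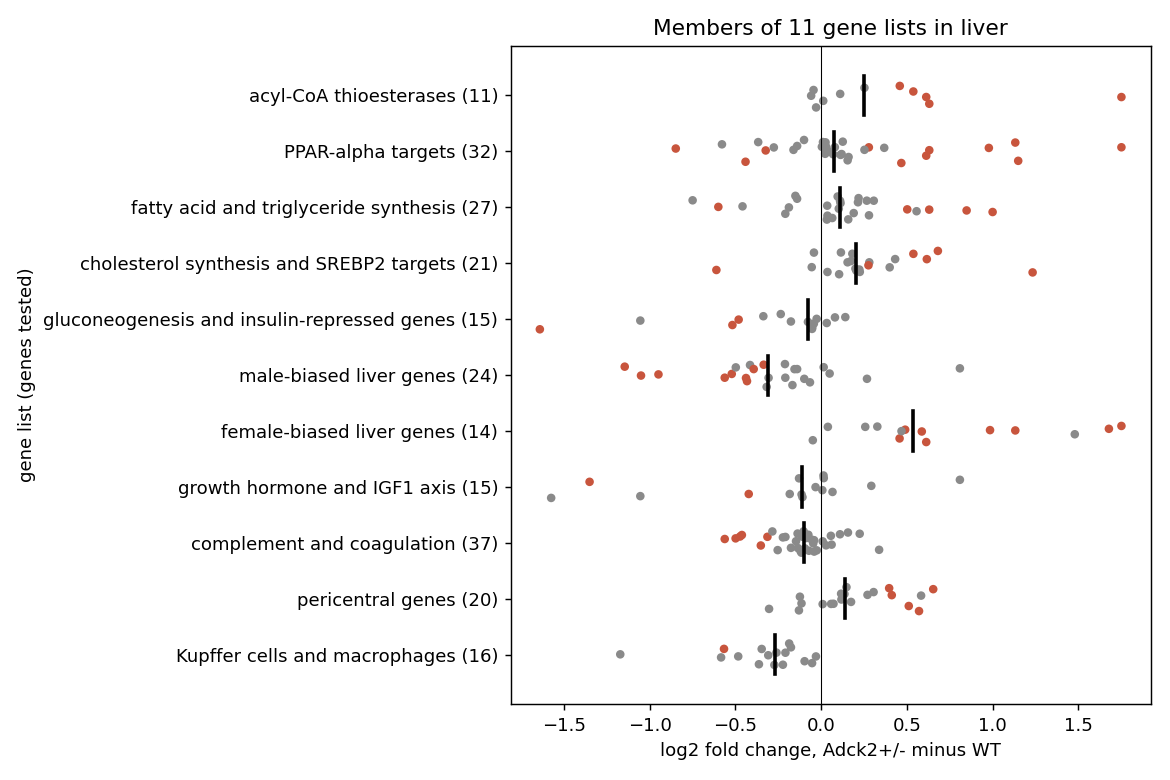
Log2 fold change (Adck2+/- minus WT) of each tested member of 11 gene lists (points; coloured where the unadjusted p from limma is under 0.05), with the median of the list as a black bar. The female-biased list has its median at 0.54 and the male-biased list at -0.31, and the other medians lie between -0.27 and 0.25.

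Of the genes known to differ between female and male mouse liver, most of the female-biased ones tested were above 0 and most of the male-biased ones below 0, although all animals were male and only Acot3 was called. Of 14 female-biased genes tested, 13 were above 0 with a median of 0.54, 8 were higher and none lower at an unadjusted p under 0.05, and 4 lay wholly above the WT values. Of 24 male-biased genes tested, 20 were below 0 with a median of -0.31, 9 were lower and none higher at an unadjusted p under 0.05, and 6 lay wholly below the WT values. Over all genes, 3.37% were higher and 3.67% lower at this p, and 0.695% lay wholly above and 1.11% wholly below. The female-biased count is a description only, since 13 of the 27 such genes on the array did not pass the filter, and 5 of the 14 that did, Cyp2b9 and Cyp2b10 among them, were detected on fewer than 5 WT arrays, so that the filter favoured members that are high in Adck2+/- mice. In a selection added once the data were known, the 9 detected on all arrays were all above 0 (median 0.49). Only 4 of these 9 were not on the study's list, which was drawn from these samples. Those 4 were above 0 (median 0.40), 1 of them at an unadjusted p under 0.05. Their means by array overlapped, from -0.58 to 0.209 in WT and from 0.1 to 0.242 in Adck2+/- mice. The counts stood at 13 of 14 and 21 of 24 with the like pairs averaged. Without the 3 arrays that stood apart they were 11 of 12 and 19 of 24 (medians 0.53 and -0.18). At an unadjusted p under 0.05, 5 female-biased genes were then higher and 7 male-biased genes lower, against 382 and 527 of all 8079 genes. With median scaling the counts were 14 of 14 and 20 of 24, where 6677 of all 8484 genes were above 0. In that setting only 3 male-biased genes were lower and 2 were higher at an unadjusted p under 0.05, and 1 lay wholly below the WT values. Of the female-biased genes 9 were then higher, against 429 higher and 51 lower of all genes.

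Among the female-biased genes, Cyp2b9, a steroid hydroxylase of female liver, was at 6.55, 5.75, 4.97, 6.01 and 4.81 in WT and 8.03, 6.70, 7.04, 7.98 and 6.72 in Adck2+/- mice. It was detected on 3 WT arrays and on all Adck2+/- arrays, and the difference was 1.68 (SE 0.38, adjusted p = 0.341 from limma; adjusted p = 0.0134 with median scaling), or 1.06 without the 3 arrays that stood apart. Its neighbour Cyp2b10, which drugs acting on the receptor CAR turn on, ran from 4.65 to 7.54 in WT and from 6.01 to 8.74 in Adck2+/- mice, with overlap, at 1.48 (SE 0.69). Cyp2b9 and Cyp2b10 are close copies, and how far their probes tell them apart was not tested. Vldlr, a lipoprotein receptor, was at 0.98 (SE 0.26) and at 0.84 and 1.12 by its other probes. Fmo4, a flavin monooxygenase, was at 0.49 with no overlap, and Gstt3, a glutathione S-transferase, at 0.46. The study had listed 7 of the 14 on these samples, and of the other 7, 6 were above 0 (median 0.33).

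Among the male-biased genes, Selenbp2, a selenium-binding protein, was at 12.22, 12.12, 13.24, 11.76 and 12.59 in WT and 11.31, 11.44, 11.05, 11.23 and 11.17 in Adck2+/- mice. The Adck2+/- values lay close together and the WT values wide apart, with no overlap, and the difference was -1.15 (SE 0.23, adjusted p = 0.341 from limma). Cyp7b1, an oxysterol hydroxylase, was at 14.16, 14.22, 14.34, 14.19 and 14.30 in WT and 13.62, 13.93, 13.75, 13.72 and 13.99 in Adck2+/- mice, again with no overlap, at -0.44 (SE 0.11). The glucuronosyltransferase gene Ugt2b1 was at -0.43 (SE 0.10) and the complement gene C6 at -0.56 (SE 0.16), both with no overlap. Hsd3b5, a steroid dehydrogenase of male liver, was at -0.52, with Adck2+/- 2 inside the WT range. The proteoglycan gene Cspg5 was at -0.95 (SE 0.26). Gstp2, a pi class glutathione S-transferase, was at 8.30 to 9.15 in WT but 6.79 and 6.95 on Adck2+/- 1 and 4 against 7.69 to 8.75 on the other Adck2+/- arrays, at -1.05 and at -0.51 without the 3 arrays. Above 0 were Gsta4 (0.27) and Bcl6 (0.81), the latter a repressor of female-biased genes that is itself counted as male-biased. Bcl6 was 11.04 on Adck2+/- 2 and 12.53 to 12.80 on the other Adck2+/- arrays, and 10.90 to 12.88 in WT.

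By array, the mean of the female-biased genes, each centred on its own mean, was -0.269, -0.365, -0.294, -0.230 and -0.667 in WT 1 to 5 and 0.587, 0.0841, 0.389, 0.509 and 0.255 in Adck2+/- 1 to 5. The mean of the male-biased genes was 0.109, 0.0835, 0.286, 0.0283 and 0.252 in WT and -0.218, -0.163, -0.147, -0.174 and -0.0566 in Adck2+/- mice. Neither set of means overlapped between genotypes, but for the female-biased genes this rests on the 7 that the study had picked on these arrays. Without them the means ran from -0.354 to 0.135 in WT and from -0.0328 to 0.288 in Adck2+/- mice and overlapped. Without the 1 male-biased gene on that list, the male-biased means still lay apart, from 0.0272 to 0.293 in WT and from -0.216 to -0.0602 in Adck2+/- mice. Of 15 genes of the growth hormone axis, 9 were below 0 (median -0.11) under quantile normalization and 7 under median scaling (median 0.003). The count was 8 without the 3 arrays that stood apart (median -0.03). Under quantile normalization 2 were lower at an unadjusted p under 0.05. Socs2, a feedback inhibitor that growth hormone turns on through STAT5, was at -1.35 (SE 0.47), being 8.53 and 8.75 on Adck2+/- 1 and 4, 10.34 to 11.18 on the other Adck2+/- arrays and 10.69 to 11.81 in WT. Without the 3 arrays it was at -0.39. Cish, another such inhibitor, ran from 7.01 to 11.80 in WT, with WT 1 and 2 at 11.78 and 11.80, and from 7.72 to 9.74 in Adck2+/- mice, at -1.58 (SE 0.80). Stat5a was at 0.29 (0.17 without WT 3) and Socs3 at -0.42.

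**Figure D5:**
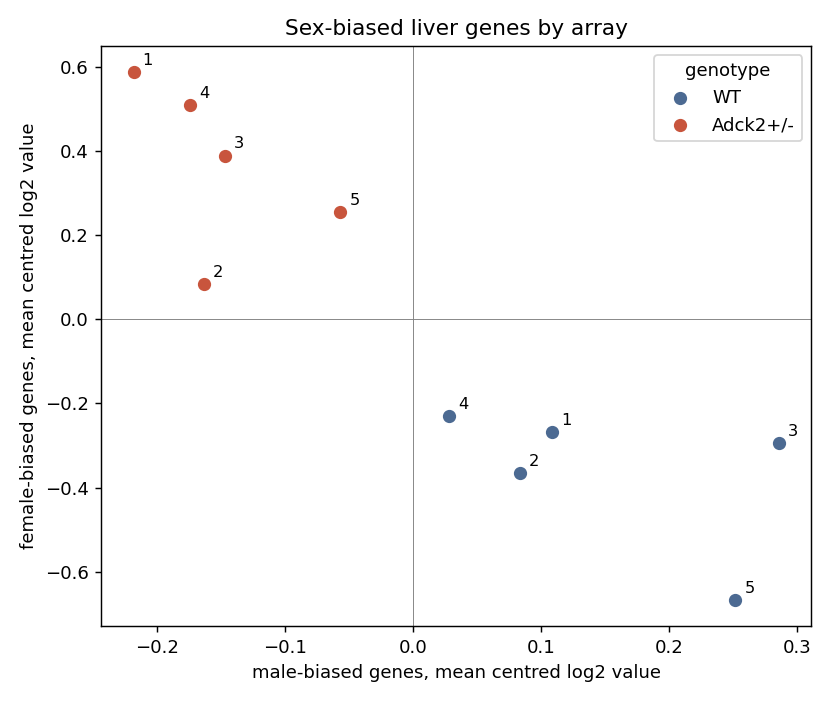
Mean centred log2 value of 24 male-biased genes (horizontal) against that of 14 female-biased genes (vertical) on each of the 10 liver arrays, numbered by replicate. The 5 WT arrays lie at the lower right and the 5 Adck2+/- arrays at the upper left, with no overlap on either axis; 7 of the 14 female-biased genes had been picked by the study on these arrays.

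Genes of the complement and coagulation cascades, which hepatocytes secrete, lay slightly lower. Of 37 tested, 29 were below 0 with a median of -0.10, and 6 were lower and none higher at an unadjusted p under 0.05. Without the 3 arrays that stood apart 23 of 37 were below 0 (median -0.06), 6 being lower and 2 higher at an unadjusted p under 0.05. With median scaling 20 of 37 were below 0, the median being -0.006 where that of all genes was 0.16. C8a and C8b, subunits of the membrane attack complex, were at -0.50 (SE 0.13, no overlap) and -0.46 (SE 0.14), and C9, which forms its pore, at -0.47, with -0.49 and -0.88 by its other probes. Masp1, a protease of the lectin pathway, lay between 12.27 and 12.49 in WT and between 11.98 and 12.18 in Adck2+/- mice, a difference of -0.31 (SE 0.10) with no overlap. The clotting factor gene F11 was at -0.35.

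Of 20 genes of the pericentral zone, the hepatocytes around the central vein, 16 were above 0 (median 0.14), 5 being higher and none lower at an unadjusted p under 0.05. Without the 3 arrays 12 of 20 were above 0, 2 being higher and 2 lower, and the median was 0.08, as it was with the like pairs averaged. Their mean followed the like arrays, at -0.270 and -0.302 on WT 1 and 2 and 0.263 and 0.269 on Adck2+/- 1 and 4, and Adck2+/- 5, at -0.187, lay among the WT arrays. Cyp2a5, a coumarin hydroxylase, lay between 13.50 and 14.01 in WT and between 14.14 and 14.68 in Adck2+/- mice (0.57, SE 0.15, no overlap), and its other 3 probes gave 0.70 to 0.78. Cyp7a1, the rate-limiting enzyme of bile acid synthesis, was at 0.65 (SE 0.20) and at 0.94 without the 3 arrays. The vasopressin receptor gene Avpr1a was at 0.41 and the glutamate transporter gene Slc1a2 at 0.40. Rgn, which encodes regucalcin, was at -0.30 and lay wholly below WT, at -0.17 without Adck2+/- 5.

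Several genes outside these groups ranked next to Acot3. Gprin3, a G-protein regulator, was at 6.41, 6.35, 5.92, 5.96 and 6.36 in WT and 5.31, 5.09, 5.31, 5.45 and 4.96 in Adck2+/- mice. It was detected on all WT arrays and on 1 Adck2+/- array, at -0.98 (SE 0.14, adjusted p = 0.103 from limma). Slc26a4, which encodes the anion exchanger pendrin, lay between 5.77 and 6.32 in WT and between 6.53 and 7.51 in Adck2+/- mice (1.05, SE 0.20). Vcpip1, a deubiquitinase, was at -0.89 (SE 0.17), Siglec1, a sialic acid receptor of macrophages, at -0.72 (SE 0.14) and Cdc26, a subunit of the anaphase-promoting complex, at -0.66 (SE 0.15), all dim and with no overlap. E2f2, a transcription factor of the cell cycle, was at 0.73 (SE 0.15), and 0.78 by its second probe. Tal1, a transcription factor of blood cells, was not above background on any WT array. It passed the filter through the Adck2+/- arrays alone, so its values are a description only. With WT values raised at least to the lowest signal detected on their arrays, the Adck2+/- mean was 1.10-fold higher. The measured means were 5.00 in WT and 5.57 in Adck2+/- mice (adjusted p = 0.341 from limma). Idh3a, a subunit of the isocitrate dehydrogenase of the Krebs cycle, lay between 8.09 and 8.29 in WT and between 8.56 and 8.74 in Adck2+/- mice, a difference of 0.43 (SE 0.10). Rab10, a small GTPase of vesicle transport, was at -0.48 (SE 0.11), and Csrnp1, a nuclear protein that axin induces, at -0.77 (SE 0.17), both with no overlap.

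Chac1, which breaks down glutathione under stress, was at -1.28 (SE 0.28), with values between 8.22 and 9.52 in WT and between 6.87 and 8.30 in Adck2+/- mice. Fech, the last enzyme of haem synthesis, was at -0.83 (SE 0.18) on its brightest probe, where the others gave 0.22 and -0.01. Cfhr2, a complement factor H-related gene, was at -0.81 (SE 0.18) with an overlap of 1 array. Etfbkmt, the methyltransferase of the electron transfer flavoprotein that passes electrons from fatty acid oxidation towards coenzyme Q, was at 9.85, 9.82, 10.74, 10.06 and 9.79 in WT and 7.84, 9.13, 8.02, 8.12 and 9.73 in Adck2+/- mice. Its groups did not overlap, but Adck2+/- 5 came close to WT 5, and the difference of -1.48 (SE 0.35) was -0.91 without the 3 arrays that stood apart. Of 15 genes of the mitochondrial stress response 9 were below 0 (median -0.05), 7 under median scaling (median 0.02) and 6 of 14 without the 3 arrays (median 0.06). Among them, Asns, asparagine synthetase, was at -0.99 (SE 0.54), and at -0.45 without WT 5, on which it was far above the other arrays. Ddit4, an inhibitor of mTOR signalling, was at 0.68.

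The study had listed genes for liver on these samples, and 31 of them were tested. Of these, 30 were above 0 and 28 had an unadjusted p under 0.05, a count that the listing itself favours. Chrna4, a nicotinic receptor subunit, was at 1.28 (SE 0.35), Sbk1, a protein kinase, at 1.00 (SE 0.32), and Rasl11b and Adamts7 at 0.81 and 0.79. Without the 3 arrays that stood apart Chrna4 stayed at 1.28 and Sbk1 was at 0.81, whereas Rasl11b, Adamts7, Tmie and Pgpep1 were at 0.35, 0.39, 0.14 and 0.13. Mgst3, a microsomal glutathione transferase, was at 0.40 (SE 0.11) with no overlap, and 0.46 without these arrays. Gstt2 was at 0.44, Dnmt3b, a DNA methyltransferase, at 0.59, Dusp6, a phosphatase of MAP kinases, at 0.46 and Mmp14, a membrane-bound matrix protease, at 0.47. Gstp1 gave -0.10 and -0.18 by its bright probes and -1.10 by a dimmer one.

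Lists of the respiratory complexes had no steady direction. Under quantile normalization the medians were -0.03 for complex I (32 genes), 0.03 for complexes II and III (11), -0.006 for complex IV (17), -0.02 for the ATP synthase (16) and 0.04 for the mitochondrial ribosome (70). With median scaling, complex I (0.10), complex IV (0.08) and the ATP synthase (0.07) turned above 0, where the median of all genes was 0.16. With z-scores of log10 signals, 27 of 32 genes of complex I, 9 of 11 of complexes II and III (median -0.08), 14 of 17 of complex IV and 13 of 16 of the ATP synthase were below 0, where 5203 of all 8484 genes were above 0. Complex I, complex IV and the ATP synthase had medians of 0.03, 0.002 and 0.08 without the 3 arrays that stood apart, and of 0.004, 0.006 and 0.03 with the like pairs averaged. Ndufb2, a complex I subunit, was at -0.36. Of 12 genes of coenzyme Q synthesis and of the ADCK family, 6 were above 0 and 6 below (median -0.0002), against 10 above with median scaling (median 0.16) and 8 with z-scores (median 0.03), and 1 had an unadjusted p under 0.05. This was Coq8a, an atypical kinase of the same family as Adck2, at 0.46 (SE 0.18), with values between 6.61 and 7.47 in WT and between 7.31 and 7.96 in Adck2+/- mice. Mitochondrial beta-oxidation had 14 of 19 genes above 0 (median 0.04), and 8 of 19 with z-scores of log10 signals (median -0.01). It had 16 of 19 above 0 both without the 3 arrays (median 0.12) and with the like pairs averaged (median 0.17). Cpt1a, also on this list, was detected on no liver array and was not tested.

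Genes of the circadian clock stood apart on single arrays, and of 18 tested 13 were below 0 (median -0.07) under quantile normalization, 7 under median scaling (median 0.10) and 10 without the 3 arrays (median -0.02). Under quantile normalization, however, 3 were higher and none lower at an unadjusted p under 0.05. Nr1d2, a repressor of the clock, was 11.04 and 10.62 on WT 3 and WT 5 and 8.98 to 9.40 on the other WT arrays, against 8.27 to 9.36 in Adck2+/- mice (-0.85, SE 0.40, and -0.55 without WT 3). Dbp, an output gene of the clock, was 8.88 and 10.15 on the same WT arrays and 7.23 to 7.40 on the other WT arrays (-0.89, SE 0.50, and -0.40 without WT 5). Per2, Nfil3 and Npas2 were at 0.37, 0.30 and 0.62. The part of the hour of sampling in these differences was not tested.

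Markers of other cells moved with the arrays too, and in bulk tissue fewer cells of a type and less RNA per cell cannot be told apart. All 16 tested markers of Kupffer cells and macrophages were below 0 (median -0.27), 1 of them at an unadjusted p under 0.05. This compares with 12 with median scaling, 12 without the 3 arrays that stood apart (median -0.13) and 13 with the like pairs averaged (median -0.17). Their mean, however, ran from -0.328 to 0.480 in WT and from -0.496 to 0.221 in Adck2+/- mice, with overlap. The like arrays lay together here, WT 1 and 2 at 0.387 and 0.415 and Adck2+/- 1 and 4 at -0.377 and -0.393. Marco, a scavenger receptor of these cells, was at 9.66, 9.65, 7.26, 9.11 and 6.58 in WT and 6.67, 7.78, 8.04, 6.60 and 7.32 in Adck2+/- mice (-1.17, and -0.71 with the like pairs averaged). Timd4 was at -0.57 and Lyz2 at -0.58. All 5 lymphocyte markers tested of 17 on the array were above 0 (median 0.45, and 0.21 with the like pairs averaged), among them Cd3g at 0.45. Their mean was -0.676 and -0.738 on WT 1 and 2 and 0.668 and 0.633 on Adck2+/- 1 and 4. The other arrays ran from -0.0564 to 0.212 in WT and from -0.337 to 0.303 in Adck2+/- mice, with overlap. Without the 3 arrays too few of them passed the filter for a median. The 4 tested of 11 neutrophil markers were above 0 too, S100a8 (0.51), S100a9 (0.53) and Lcn2 (0.46) among them. Csf3r, the remaining one, was at 0.002, and 3 of the 4 were above 0 without the 3 arrays, with the like pairs averaged and with z-scores. The neutrophil mean ran from -0.485 to 0.499 in WT and from -0.246 to 0.359 in Adck2+/- mice, with overlap. The neutrophil genes Mpo, Elane and Camp were detected on no liver array. The part of these markers in the differences of Siglec1, Tal1 and the other genes above was not tested.

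The genotype difference itself differed between liver and muscle for 3 of 7339 genes measured in both tissues, in a fit of all 20 arrays with each array taken as independent. Mvd was at 1.23 in liver and -0.40 in muscle, a difference of 1.63 (SE 0.28, adjusted p = 0.0297 from limma). Tal1 was the other of the 2 genes called above 0 (0.0273%), at the same adjusted p. However, it was not above background on any WT liver array and passed the liver filter through the Adck2+/- arrays alone. Its call is therefore a description only, and the size of its difference was not measured. Vcpip1 was at -0.89 in liver and 0.48 in muscle, a difference of -1.38 (SE 0.22, adjusted p = 0.0297), the 1 gene called below 0 (0.0136%). Without the 3 liver arrays that stood apart none was called. Srebf2 was at 0.54 and -0.32 (adjusted p = 0.151), Selenbp2 at -1.15 and 0.00011 (adjusted p = 0.182) and Fasn at 1.00 and 0.12 (adjusted p = 0.413). Acot3 did not pass the filter in both tissues and was not compared between them.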

How the data were processed

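Liver RNA of 5 mice per genotype was hybridized to Illumina bead arrays for mouse; the methods name an Affymetrix GeneChip, but the probe names are those of Illumina. The intensity values are mean bead signals as deposited by the authors, without normalization across arrays. A detection p-value, which compares a signal with negative-control beads, was deposited with each. The deposited value table, with 2165 entries under the ID of another probe, served only as an alternative. Background treatment before deposit is not given in the sources used here.

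Groups came from the labels. neqc of limma (R 4.3.3, limma 3.58.1) corrected the background from the detection p-values, added an offset of 16, normalized by quantiles and took log2. A probe was kept if 5 or more of the 10 arrays detected it (p under 0.05), and the brightest kept probe stood for its gene. Names came from the platform annotation, updated through RefSeq (GRCm38.p6), and 1719 probes with no name there were left out. lmFit and eBayes compared the genotypes. Benjamini-Hochberg adjustment ran over 8484 genes, and a call means an adjusted p under 0.05. Within a genotype, the SD of a gene had a median of 0.276 log2 units, and the number of arrays limits the precision. The model fit and the rule for overlap were tested on simulated log2 values with known changes and noise independent between arrays. Background correction, normalization, filter and probe choice were not tested in this way. Figures were drawn with Python 3.11 and matplotlib 3.10.9.

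The gene lists and the genes named were chosen with earlier results of these data known. Named were genes that were called, the 12 with the smallest p in each direction, those with no overlap and a log2 fold change of at least 1, the study's liver list, Adck2, genes of the sex chromosomes and, of each list, up to 6 with the smallest p and the 2 brightest. Lists are described by counts and medians, with no test. Alternatives covered background, scaling, filter, probe choice, model and each array left out.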

Additional observations from a re-analysis of the deposited data

Results flagged for a closer look

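In 13 cases a gene named above had 1 of 5 arrays far outside the rest of its genotype, by a gap past the 95% critical value of Dixon. Among 232 groups of 5 looked at, 14 were so set apart, and chance alone gives about 1 in 20. WT 3 was the high array for Etfbkmt (10.74, others 9.79 to 10.06) and Angptl4 (13.39, others 12.03 to 12.26) and the low array for Sc5d (9.23, others 10.21 to 10.59), Avpr1a (11.56, others 11.83 to 11.89) and the mean of the fatty acid and triglyceride synthesis genes (-0.317, others -0.035 to 0.0484), the only one of the list means so set apart.

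Adck2+/- 5 was the high array for Angptl4 (12.65, others 11.16 to 11.35) and the low one for Avpr1a (11.78, others 12.28 to 12.43), Rgn (9.93, others 10.58 to 10.65), Cd3g (5.84, others 6.46 to 6.51) and S100a8 (6.89, others 7.72 to 7.93). The remaining cases were Cyp4a14 in WT 5 (11.25, others 13.34 to 13.44), Insig1 in WT 4 (11.22, others 11.89 to 12.06), Bcl6 in Adck2+/- 2 (11.04, others 12.53 to 12.80) and Fmo4 in Adck2+/- 3 (6.98, others 6.27 to 6.45).

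The genotype difference in liver minus that in muscle passed an adjusted p under 0.05 from limma for Mvd (1.63) and Vcpip1 (-1.38), with opposite signs in the tissues, and for Tal1 (fitted value 1.05, whose size was not measured, since Tal1 was not above background on any WT liver array).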

How the results depend on the processing

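Of the named genes, read by the brightest probe or the mean of the probes, 2 changed sign, Igfbp1 (0.14) and G6pc (0.24) without the 3 arrays that stood apart, while dimmer probes of Insig1 and Fech had the other sign, and with the mean of the probes these were at -0.007 and -0.21. Acot3 kept its direction under all alternatives run. The count of called genes, 1 with quantile normalization, was 3 with median scaling (Acot3, Cyp2b9, Mvd) and 2 with array weights (Acot3, Gprin3). It was 0 with no filter, with each probe by itself, with the methods' paired t-test (478 genes at p under 0.05), without the 3 arrays, with the first principal component as a covariate and with the like pairs averaged, an alternative added after the data were seen (426 genes at an unadjusted p under 0.05). With 1 array left out it was 0 to 2, and 2 without Adck2+/- 5 (Acot3 and Nfe2, the latter named here after its value was seen). The 597 genes at an unadjusted p under 0.05 became 1005 with no filter, of 16593, 909 without the 3 arrays and 1262 with the component as a covariate, and ran from 452 to 679 with 1 array left out. The 153 genes with no overlap became 71 with median scaling (64 higher), 912 without the 3 arrays, where fewer arrays are compared, and 255 with the like pairs averaged, and ran from 180 to 261 with 1 array left out. Calls of the difference between tissues went from 3 to 0 without the 3 arrays. Of the list medians recomputed, 1241 moved by less than the spread between arrays and 70 by more. These counts include the medians of z-scores, which are in another unit than the spread, so for that setting the comparison does not measure a move.

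Equal replicate numbers are not stated to pair the mice, so no pairing was used in the main fit. Deviations of same-numbered arrays correlated at -0.54 to 0.28, above 0.1 for 1 of 5 numbers. These correlations cannot tell whether the numbers mark pairs, since the first principal component, on which some arrays stood apart, held 45.9% of the variance. With the replicate block, 1 gene was called (Acot3, adjusted p = 0.0189) and 418 had an unadjusted p under 0.05. With 5 arrays per genotype, and fewer where pairs are alike, small differences were not detectable, and dim genes such as Gprin3 and Tal1 lie close to background.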
